A study of Mus musculus with 11 samples.

Results

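The 52 genes described here encode the machinery of mitosis, from the cyclins and kinases that start it to the kinetochores, motors and contractile proteins that carry it out. They were taken by name from the 48440 genes of a bulk RNA-seq count table and the 32285 genes of a pair of scRNA-seq matrices. All 52 were found in both, with Knl1 listed as Casc5 in the count table and matched by its position. In these experiments Syncrip, which encodes an RNA-binding protein, was deleted in progenitors of the mouse dorsal neocortex, and cells were collected at E14.5 (E for embryonic day). RNA-seq covered neural progenitor cells (NPCs) in culture, with 3 wild type (WT) and 3 Syncrip conditional knockout (cKO) cultures, and scRNA-seq covered dissected dorsal cortex of 1 WT and 1 cKO embryo from 1 litter. The cKO is Syncrip fl/fl; Emx1-Cre on a C57BL/6 background, where Cre is driven by Emx1 in the dorsal neocortex and deletes exons 2, 3 and 4. The labels call the controls WT, and no further allele of theirs is given in the sources used here. The NPCs were dissected from around the lateral ventricles and grown with EGF and bFGF, and the passage of the cultures used for RNA-seq was not stated. LACE-seq samples of the same series were not analysed here.

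A dividing cell switches on these genes late in its cycle. Cyclin A2 and the B cyclins activate Cdk1, the spindle attaches to kinetochores built on centromeres, the spindle checkpoint holds the cell until every kinetochore is attached, and the anaphase-promoting complex (APC/C) then marks cyclin B and securin for destruction. In the embryonic neocortex the cells that divide are mainly apical progenitors (APs), which line the ventricle, and intermediate progenitors (IPs), which derive from them, while neurons have left the cycle. Many genes of this kind share promoter elements. The CCAAT box is bound by NF-Y, and the cell cycle genes homology region (CHR, typically TTTGAA) is bound by the DREAM and MuvB complexes, which keep such genes off in resting cells and allow their peak in G2 and M.

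The promoters of these genes carried those letters more often than promoters did in general. RefSeq windows from 250 bases before to 50 bases after the start (GRCm38.p6, 1 window per gene) were found for 44 of the 52 genes and for 27025 genes in all. CCAAT was searched as CCAAT or ATTGG and the CHR as TTTGAA or TTCAAA, so that both strands were covered. Where the 2 motifs share a letter, the match was counted for each. CCAAT occurred at least 2 times in 24 of the 44 windows (54.5%), against 12.2% of all windows. TTTGAA occurred in 34 of the 44 (77.3%), against 18.1% of all. Both conditions were met by 21 of the 44 (47.7%), against 2.19% of all. The 109 windows found for 130 other genes of mitosis lay between, with 27.5% for CCAAT at least 2 times, 33.0% for TTTGAA and 11.9% for both. A match of these letters is a description and not a binding site. The last 150 bases before the start are shown for 4 genes with such letters and for Mad2l1, 1 of 6 genes with neither in the window. Genes with neither did not all change little in culture, as described below: of the others, Nuf2 had a log2 change of 1.04 and Birc5 one of 0.96, while Ncapd2, with the smallest change, held CCAAT 3 times and TTTGAA once. Capitals mark CCAAT and TTTGAA on either strand, and each run reads 5′ to 3′ on the strand of the gene. They come from chr10:69352913-69353062 (minus strand) for Cdk1, chr4:118437344-118437493 (minus) for Cdc20, chr2:164769779-164769928 (plus) for Ube2c, chr11:99024190-99024339 (minus) for Top2a and chr6:66535071-66535220 (plus) for Mad2l1.
Cdk1: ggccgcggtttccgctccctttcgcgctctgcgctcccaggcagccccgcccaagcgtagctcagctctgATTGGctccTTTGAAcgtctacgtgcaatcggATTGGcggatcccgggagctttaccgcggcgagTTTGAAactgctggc
Cdc20: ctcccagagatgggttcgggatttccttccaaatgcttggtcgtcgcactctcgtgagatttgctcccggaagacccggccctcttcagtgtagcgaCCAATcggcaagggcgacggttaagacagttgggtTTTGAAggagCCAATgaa
Ube2c: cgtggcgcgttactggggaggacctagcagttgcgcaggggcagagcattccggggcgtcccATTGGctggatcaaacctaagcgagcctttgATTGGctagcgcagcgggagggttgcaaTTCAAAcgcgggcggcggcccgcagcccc
Top2a: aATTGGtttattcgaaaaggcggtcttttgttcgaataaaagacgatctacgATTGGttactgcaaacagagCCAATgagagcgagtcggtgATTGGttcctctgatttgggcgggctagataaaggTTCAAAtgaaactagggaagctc
Mad2l1: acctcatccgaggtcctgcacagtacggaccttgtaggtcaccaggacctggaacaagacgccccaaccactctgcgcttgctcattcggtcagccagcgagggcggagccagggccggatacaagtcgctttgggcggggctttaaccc

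In culture, every mitotic gene that could be tested was higher in Syncrip cKO NPCs. Of the 52 genes, 49 passed the filter on low counts, and all 49 rose in cKO by edgeR's quasi-likelihood test at an adjusted p under 0.05, with none lower. Over all 14432 genes tested, 19.7% were called higher and 19.8% lower. The median change of the 49 genes was 1.94-fold (log2 0.96, range 0.28 to 1.53), beside a median log2 change of 0.00 over all genes. A change of at least 2-fold was reached by 23 of the 49. All 3 cKO cultures lay above all 3 WT cultures for 44 of the 49, an order seen in 25.7% of all genes in this direction and in 24.7% in the other. The values are CPM, counts scaled to a common library total by TMM, from libraries of 16962903 to 22708400 counts. None of the 49 needed the cKO libraries to pass the filter, since the lowest value of any of them in a WT culture was 1.52 CPM. The other 3 genes, Bub3, Kif18b and Prc1, were listed at 0 in all 6 cultures. Their whole span lies inside another gene (Fgfr2, Gm26668 and Rccd1), and all 10755 genes of the table with such a position are listed at 0, so nothing can be said of these 3 in culture.

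**Figure D1:**
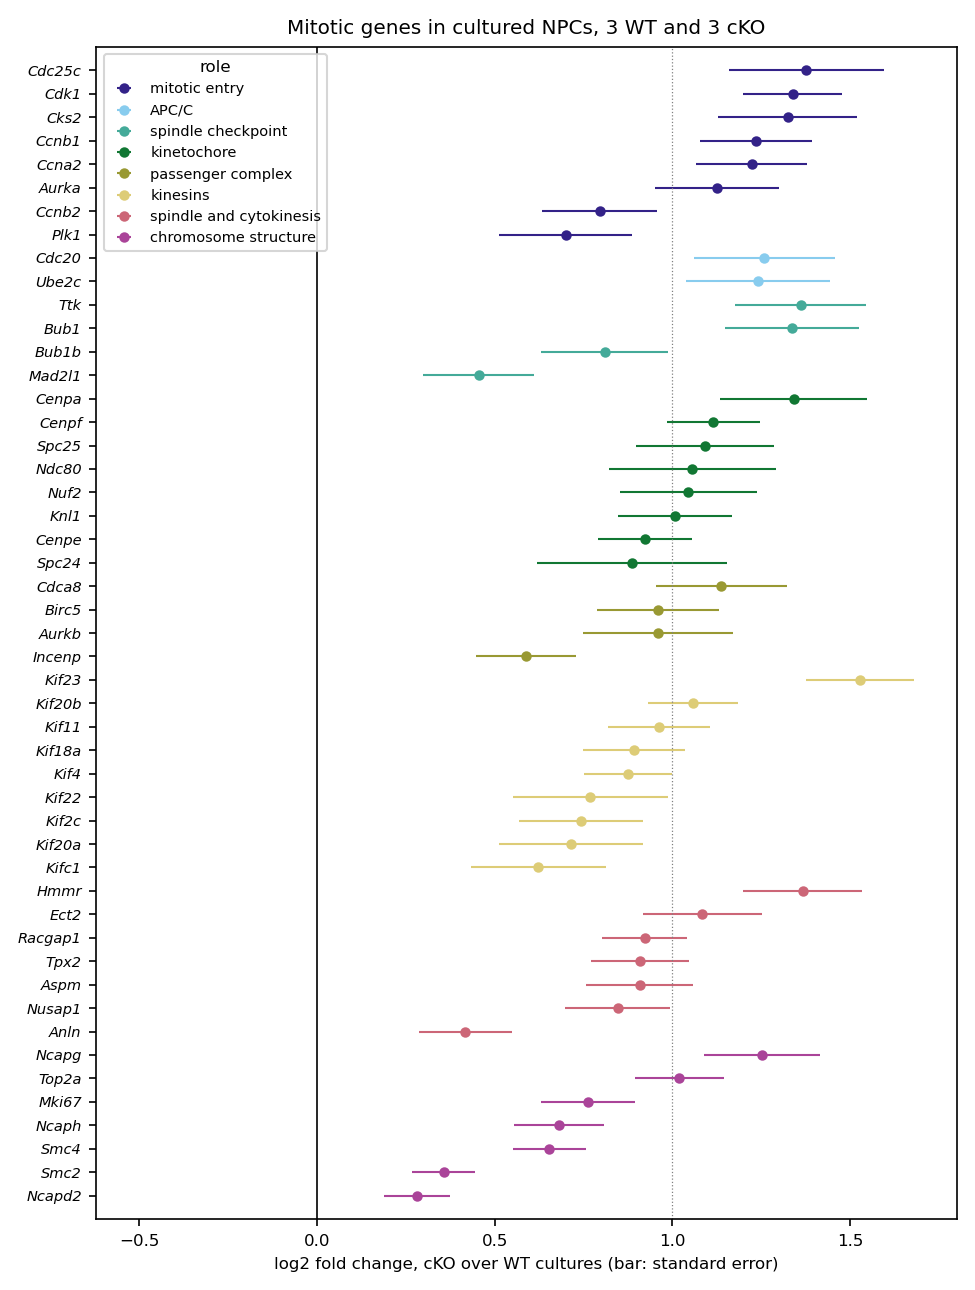
Log2 fold change of 49 mitotic genes between 3 cKO and 3 WT NPC cultures (x axis; bars are standard errors), grouped by role along the y axis. All points lie to the right of 0, from 0.28 for Ncapd2 to 1.53 for Kif23, and the dotted line marks a 2-fold change.

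All 8 genes of mitotic entry rose, with a median log2 change of 1.23. Cdk1, the kinase that drives entry into mitosis, was measured at 12.2, 10.5 and 9.15 CPM in the WT cultures and at 22.5, 28.2 and 29.8 CPM in the cKO cultures. Its log2 change was 1.34 ± 0.14 (SE, n = 3 and 3, edgeR adjusted p = 6.9e-06), and every cKO value was above every WT value. Cdc25c encodes a phosphatase that removes the inhibitory phosphates from Cdk1. It stood at 3.06, 3.73 and 3.03 CPM in WT and at 5.93, 10.4 and 9.21 CPM in cKO (log2 1.38 ± 0.22, edgeR adjusted p = 0.000253), again with no overlap. The smallest change of this role was that of Plk1, a kinase needed for centrosome maturation and spindle assembly, at 6.48, 6.46 and 7.54 CPM in WT and 7.90, 12.4 and 13.1 CPM in cKO. The first cKO culture lay just above the WT range and the other 2 well above it (log2 0.70 ± 0.19, edgeR adjusted p = 0.00918). Without the third cKO culture Plk1 was no longer called (edgeR adjusted p = 0.0611). Among the cyclins, Ccnb1 (log2 1.23) and Ccna2 (log2 1.22) rose more than Ccnb2 (log2 0.80) in point estimate, a difference between genes that was not tested.

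The 2 genes of the APC/C pathway rose alike. Cdc20, the activator of the APC/C at anaphase, was at 8.65, 11.6 and 9.37 CPM in WT and at 15.6, 26.1 and 29.02 CPM in cKO (log2 1.26 ± 0.20, edgeR adjusted p = 0.000247). Ube2c, its ubiquitin-conjugating enzyme, was at 13.5, 10.6 and 8.30 CPM in WT and at 18.1, 27.7 and 30.8 CPM in cKO (log2 1.24 ± 0.20, edgeR adjusted p = 0.000454). For both the genotypes did not overlap, and the first cKO culture was the lowest of its group.

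The spindle checkpoint genes rose with a wider range of sizes. Ttk, which encodes the kinase Mps1 at the top of the checkpoint, was at 6.89, 4.90 and 4.24 CPM in WT and at 12.02, 13.8 and 15.4 CPM in cKO (log2 1.36 ± 0.18, edgeR adjusted p = 6.41e-05). Bub1, a checkpoint kinase of the kinetochore, was at 9.59, 7.41 and 5.31 CPM in WT and at 15.6, 19.6 and 21.1 CPM in cKO (log2 1.34 ± 0.19, edgeR adjusted p = 9.71e-05). Both were free of overlap. Mad2l1, whose product Mad2 inhibits Cdc20, was at 13.3, 11.3 and 9.73 CPM in WT and at 12.8, 18.1 and 16.3 CPM in cKO, so that the first cKO culture fell within the WT range. Its log2 change was 0.46 ± 0.16 (edgeR adjusted p = 0.0323), and the call was lost, with adjusted p up to 0.143, when the second or the third culture of either genotype was left out. Bub1b, which encodes BubR1, rose by 0.81 on the log2 scale.

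All 8 kinetochore genes rose without overlap, with a median log2 change of 1.05. Cenpa encodes the histone H3 variant that marks centromeres. It was at 9.23, 10.3 and 9.01 CPM in WT and at 15.2, 30.2 and 27.0 CPM in cKO (log2 1.34 ± 0.21, edgeR adjusted p = 0.000281). Cenpf, a large outer kinetochore protein, was at 24.3, 20.9 and 20.97 CPM in WT and at 37.7, 50.9 and 55.0 CPM in cKO (log2 1.11 ± 0.13, edgeR adjusted p = 1.94e-05). The Ndc80 complex, which binds microtubules, was represented by all 4 subunits. Ndc80, Nuf2 and Spc25 rose by 1.06, 1.04 and 1.09 on the log2 scale, and Spc24 by 0.89 ± 0.27 (edgeR adjusted p = 0.0177). Spc24 had the lowest level of all 49 genes, at 3.51, 2.67 and 1.52 CPM in WT and 4.32, 4.54 and 5.35 CPM in cKO. Its call was lost without the second or the third WT culture or the third cKO culture (edgeR adjusted p up to 0.0759).

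The 4 genes of the chromosomal passenger complex, which corrects faulty attachments and guides cytokinesis, also rose without overlap. Cdca8 (Borealin) was at 7.56, 8.52 and 7.32 CPM in WT and at 12.6, 16.6 and 22.2 CPM in cKO (log2 1.14 ± 0.18, edgeR adjusted p = 0.000285). Birc5 (Survivin) was at 7.16, 5.90 and 5.26 CPM in WT and at 9.66, 13.2 and 12.8 CPM in cKO (log2 0.96 ± 0.17, edgeR adjusted p = 0.000636). Incenp, the scaffold of the complex, changed least, at 21.03, 22.6 and 22.98 CPM in WT and 24.8, 38.7 and 36.8 CPM in cKO (log2 0.59 ± 0.14, edgeR adjusted p = 0.00469). Its kinase Aurkb rose by 0.96 on the log2 scale.

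**Figure D2:**
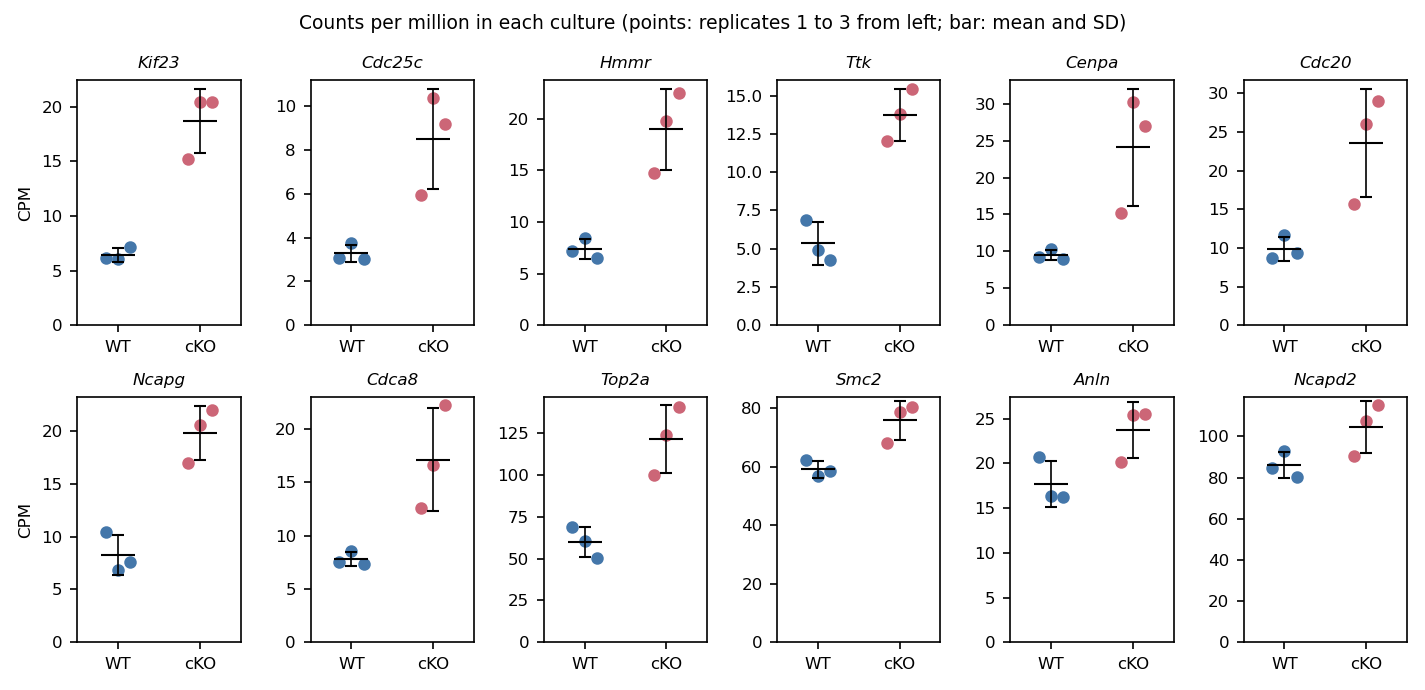
CPM of 12 mitotic genes (y axes, from 0) in each NPC culture, with WT in blue, cKO in red, and the mean and SD in black (n = 3 each). The cKO values lie above the WT values for all but Anln and Ncapd2, where the first cKO culture falls within the WT range.

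Among the mitotic kinesins, 9 of 10 were tested and 9 rose (median log2 0.87). Kif23, a motor of the central spindle, had the largest change of all the genes, at 6.17, 6.02 and 7.18 CPM in WT and at 15.3, 20.4 and 20.4 CPM in cKO (log2 1.53 ± 0.15, edgeR adjusted p = 4.52e-06). Kif20b, also a motor of cytokinesis, was at 11.1, 9.13 and 11.3 CPM in WT and at 19.8, 23.6 and 22.5 CPM in cKO (log2 1.06 ± 0.13, edgeR adjusted p = 2.37e-05). Kifc1, a minus-end motor that bundles spindle microtubules, overlapped between genotypes, at 8.87, 11.9 and 12.6 CPM in WT and 12.02, 18.99 and 20.4 CPM in cKO. It passed the test (log2 0.62 ± 0.19, edgeR adjusted p = 0.0179), but not without the first or second WT culture or the second or the third cKO culture (adjusted p up to 0.102). Kif20a and Kif22 were called too, and their calls were lost without the third cKO culture (edgeR adjusted p = 0.0800) and without the second (edgeR adjusted p = 0.0639).

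Of the genes of spindle assembly and cytokinesis, 7 of 8 were tested and 7 rose (median log2 0.91). Hmmr, a spindle assembly factor, was at 7.20, 8.47 and 6.47 CPM in WT and at 14.7, 19.7 and 22.5 CPM in cKO (log2 1.37 ± 0.17, edgeR adjusted p = 2.82e-05). Ect2, which activates RhoA at the cleavage furrow, was at 13.01, 9.69 and 7.72 CPM in WT and at 19.03, 24.1 and 21.5 CPM in cKO (log2 1.08 ± 0.17, edgeR adjusted p = 0.000207). Both were clear of overlap. Anln, which encodes the ring protein anillin, was at 20.7, 16.3 and 16.2 CPM in WT and at 20.2, 25.5 and 25.6 CPM in cKO (log2 0.42 ± 0.13, edgeR adjusted p = 0.0207). The call for Anln was lost without the second or the third culture of either genotype (adjusted p up to 0.102). Aspm, which organizes spindle poles and is known for its role in neocortical progenitor division, rose by 0.91 on the log2 scale.

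The 7 genes of chromosome structure had the lowest median, at 0.68. Ncapg, a subunit of condensin I, was at 10.4, 6.85 and 7.58 CPM in WT and at 16.97, 20.5 and 21.9 CPM in cKO (log2 1.25 ± 0.16, edgeR adjusted p = 4.6e-05). Top2a, the topoisomerase that untangles sister chromatids, was at 68.7, 60.3 and 50.5 CPM in WT and at 99.7, 124 and 140.2 CPM in cKO (log2 1.02 ± 0.12, edgeR adjusted p = 3.26e-05). Ncapd2, another condensin I subunit, had the smallest change of the 49, at 84.4, 92.8 and 80.5 CPM in WT and 90.4, 107 and 115 CPM in cKO (log2 0.28 ± 0.09, edgeR adjusted p = 0.0279). It was no longer called without the third WT culture, the second or the third cKO culture, or with the sex of the culture in the model (adjusted p up to 0.181). The condensin ATPases Smc2 and Smc4, which also serve condensin II, rose by 0.36 and 0.65 on the log2 scale, and Smc2 was not called without the third cKO culture (edgeR adjusted p = 0.0506).

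Other genes of mitosis moved in the same direction less uniformly. Of 130 such genes, 127 were tested, 66 were higher and 12 lower, with a median log2 change of 0.32. Of other mitotic kinases and phosphatases 8 of 12 were higher and 1 lower, and of other kinetochore and centromere genes 20 of 34 were higher and 3 lower. Pbk, a mitotic kinase, rose by 1.66 ± 0.20 on the log2 scale (edgeR adjusted p = 2.8e-05), and Nek2, a kinase of centrosome separation, by 1.24 ± 0.20 (edgeR adjusted p = 0.000239). Among other genes of the spindle and cytokinesis 19 of 33 were higher and 5 lower, with Cep55, an abscission factor, at log2 1.64 ± 0.22 (edgeR adjusted p = 6.15e-05) and Depdc1a at log2 1.41 ± 0.25 (edgeR adjusted p = 0.000544). The kinetochore genes Ska1 and Spdl1 rose by 1.33 and 1.27 on the log2 scale. Of 13 genes of cohesin and condensin II, 8 rose and none was lower, among them the cohesin regulators Cdca5 (log2 1.10) and Esco2 (log2 1.02). The subunits and regulators of the APC/C, listed with securin and separase, moved least. Of these, 4 of 19 were higher and 2 lower, beside 19.7% and 19.8% of all genes. Espl1, which encodes separase, rose by 0.70 on the log2 scale, while the APC/C subunit Anapc16 decreased by 0.52. In the group of transcription factors that act on mitotic genes, 7 of 16 were higher and 1 lower, with E2f7, a repressor of cell cycle genes, at log2 1.15 ± 0.23 (edgeR adjusted p = 0.00134) and Foxm1, an activator of G2 and M genes, at log2 0.82 ± 0.15 (edgeR adjusted p = 0.000602).

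The promoter letters shown above can be set beside these results for genes outside the list of 52. Of 172 other tested genes whose window held CCAAT at least 2 times and TTTGAA, 27.3% were higher in cKO cultures and 16.3% lower. Of 7847 tested genes with CCAAT under 2 times and no TTTGAA, 19.7% were higher and 21.2% lower. The groups between were 1330 genes with CCAAT at least 2 times and no TTTGAA (22.5% higher and 18% lower) and 962 with TTTGAA and CCAAT under 2 times (20.8% and 18.7%). These are counts without a test, and 13 of the 172 are among the 130 other genes of mitosis.

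Markers of several cell types also differed between the genotypes in culture. The summed level of the mitotic genes was 864, 809.7 and 723 CPM in WT and 1169, 1532 and 1604 CPM in cKO. Summed DNA replication genes, 8 of 12 of which rose, lay between 247 and 291 CPM in WT cultures and between 299.99 and 374 CPM in the cKO ones. The ratio of the first sum to the second was 2.78 to 3.11 in WT and 3.90 to 4.29 in cKO, again without overlap. Progenitor markers summed to between 1972 and 2663 CPM in WT cultures and to between 3114 and 3407 CPM in the cKO ones, with 3 of 7 higher and 3 lower, and with Sox2 listed at 0. The ratio of the mitotic genes to these markers overlapped, at 0.304 to 0.367 in WT and 0.343, 0.492 and 0.481 in cKO, with the first cKO culture within the WT range. Astrocyte markers were lower in cKO for 5 of 6 genes, summing to between 5115 and 5322 CPM in WT cultures but to between 2949 and 3308 CPM in the cKO ones, with Gfap listed at 0. Neuron markers were lower for 9 of 13 and higher for 0, although their sums overlapped (WT between 2521 and 2831 CPM, cKO between 2526 and 2633 CPM), with Tubb3 and Neurod1 listed at 0. Map2, which was not called (log2 0.19), held the largest part of these sums, at 1346 to 1731 CPM. The largest falls were those of Stmn2 (log2 -6.56), Neurod6 (-4.14) and Neurod2 (-2.24). Oligodendrocyte lineage markers lay between 4009 and 4318 CPM in sum for WT and between 2983 and 3545 CPM for cKO, with 2 of 7 higher and 2 lower, and pericyte markers between 270.4 and 334 CPM for WT and between 309.7 and 347 CPM for cKO, with 2 of 4 tested lower. Most of the pericyte sum came from Notch3 and Cspg4, and Cspg4 is also in the oligodendrocyte lineage list. The pericyte marker Rgs5 did not exceed 1.115 CPM in any culture, Vtn and Abcc9 were lower still, and Kcnj8 was listed at 0. Microglia, endothelial and red blood cell markers did not exceed 3.30 CPM in sum in any culture, with C1qa, C1qb, Cldn5, Cdh5 and Hbb-bs among those listed at 0. Since genes that lie inside another gene are at 0 in this table, a marker at 0 does not show that its cells were absent. In bulk RNA more dividing cells and more mitotic RNA per dividing cell cannot be told apart, nor can fewer cells of a type and less of its RNA per cell, and the part of these marker differences in the mitotic genes was not tested. Y-linked genes gave 5903 to 9232 counts in the first and second WT and the first cKO culture and at most 1 in the others, and with sex in the model 48 of the 49 genes were still called. Syncrip itself was at 77.9, 79.8 and 79.9 CPM in WT and at 90.3, 88.7 and 81.5 CPM in cKO (log2 0.13 ± 0.08, edgeR adjusted p = 0.18). The table counts the whole gene, so it does not check the deletion of exons 2, 3 and 4.

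In the embryos, cells were grouped by clustering and named from markers. A class was taken as cycling when its DNA replication genes were at least 3 times as high as in immature neurons in both libraries. It also needed at least 50 cells in each library. The genes described here were kept out of the clustering. The classes like APs (916 WT and 1225 cKO cells), IPs (634 and 690), progenitors of the ganglionic eminence (GE, 425 and 658) and meningeal fibroblasts (117 and 107) met both conditions. Endothelial cells (24 and 33) and microglia (31 and 49) met the condition on replication genes but held too few cells. The GE progenitor class was 1 cluster whose leading genes also held markers of GE neurons, and Emx1-Cre does not act in the GE. The mitotic genes together took 7307 CPM, here in UMIs (95% interval 7258 to 7356) in WT and 6786 (6747 to 6825) in cKO APs. In IPs they took 3998 (3955 to 4040.3) and 4505 (4461 to 4549), and in GE progenitors 6533 (6456 to 6610.0) and 5545 (5486 to 5604). Immature neurons, which do not divide, held 327 (319 to 335) and 336 (328 to 344). UMIs are molecules counted at the 3′ end of transcripts, the intervals cover counting error only, and with 1 embryo per genotype no test between genotypes was made. The WT library showed Y-linked genes and the cKO library Xist, so the embryos also differ in sex. The libraries shared 22 barcodes.

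**Figure D3:**
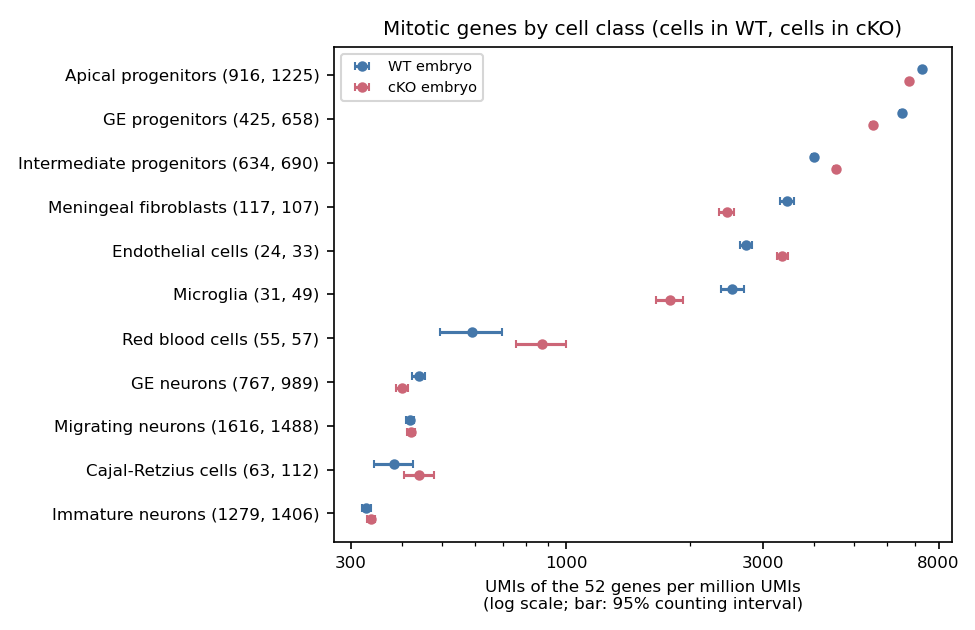
Summed UMIs of the 52 mitotic genes as CPM of all UMIs (x axis, log scale) in each named cell class of the WT (blue) and cKO (red) embryo, with 95% counting intervals. The progenitor classes lie between 3998 and 7307, and the neuron classes, Cajal-Retzius cells included, between 327 and 439.

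In APs the direction differed from that in culture. All 52 genes had at least 200 UMIs over both libraries, and their median log2 ratio of cKO over WT was -0.09 (range -0.47 to 0.22), beside -0.01 over the 10063 genes with as many UMIs. Of the 52, 38 had a ratio below 0 and 14 above. A difference of at least 1.2-fold was seen in 9 genes, all lower in cKO, where 5.88% of all genes were lower and 7.86% higher by as much. The counting interval lay below 0 for 24 genes, above 0 for 5 and across 0 for 23. No share over all genes was computed for such intervals, so these counts have no background beside them. The lowest ratios were those of Aspm (67.3 CPM, 62.7 to 72.2, in WT and 48.6, 45.3 to 52.01, in cKO, log2 ratio -0.47), Cenpf (391 and 297 CPM, -0.40) and Cdc20 (206 and 157 CPM, -0.39). Cenpa (298 and 229.5 CPM, log2 ratio -0.38) followed, and cyclin B1 was at -0.30 (-0.39 to -0.22). The highest were Ttk (38.4 and 44.7 CPM, log2 ratio 0.22, 0.05 to 0.39), Top2a (392 and 442 CPM, 0.18, 0.12 to 0.23) and Spc25 (136 and 154 CPM, 0.17, 0.08 to 0.26). Cdk1 was also higher, with 209.9 CPM (202 to 218) in the WT embryo against 227 CPM (219.9 to 234) in the cKO embryo.

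The roles were mixed in APs. The 2 APC/C genes had a median log2 ratio of -0.28, kinetochore genes one of -0.14 and chromosome structure genes one of -0.02. Within the kinetochore group, 5 genes were below 0 and 3 above, with Cenpf, Cenpa and Cenpe at -0.32 or less and Spc24 and Spc25 at 0.10 and 0.17. Of the kinesins 9 of 10 were below 0, with Kif2c at -0.37 and Kif23, which had the largest rise in culture, at -0.11 (-0.22 to 0.01). Hmmr (-0.20, -0.32 to -0.08), Ube2c (-0.17, -0.22 to -0.12), Bub1 (-0.19, -0.33 to -0.05), Cdca8 (-0.16, -0.23 to -0.09) and Birc5 (-0.08, -0.16 to -0.01) were below 0 with their intervals. Cdc25c (0.11, -0.06 to 0.29), Plk1 (0.02, -0.12 to 0.17), Incenp (-0.02, -0.14 to 0.11), Kif20b (-0.05, -0.19 to 0.08), Kifc1 (-0.00, -0.17 to 0.16), Ncapg (-0.00, -0.15 to 0.15), Ncapd2 (-0.05, -0.19 to 0.08) and Anln (0.12, -0.07 to 0.32) had intervals across 0. The ratios of Mad2l1 (-0.15, -0.29 to -0.01) and Ect2 (-0.11) turned to 0.05 and 0.06 when each cell was thinned to 5000 UMIs. Of the genes listed at 0 in culture, Bub3 was at 0.05 (-0.03 to 0.14), Kif18b at -0.11 (-0.35 to 0.14) and Prc1 at -0.15 (-0.23 to -0.08) in APs.

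**Figure D4:**
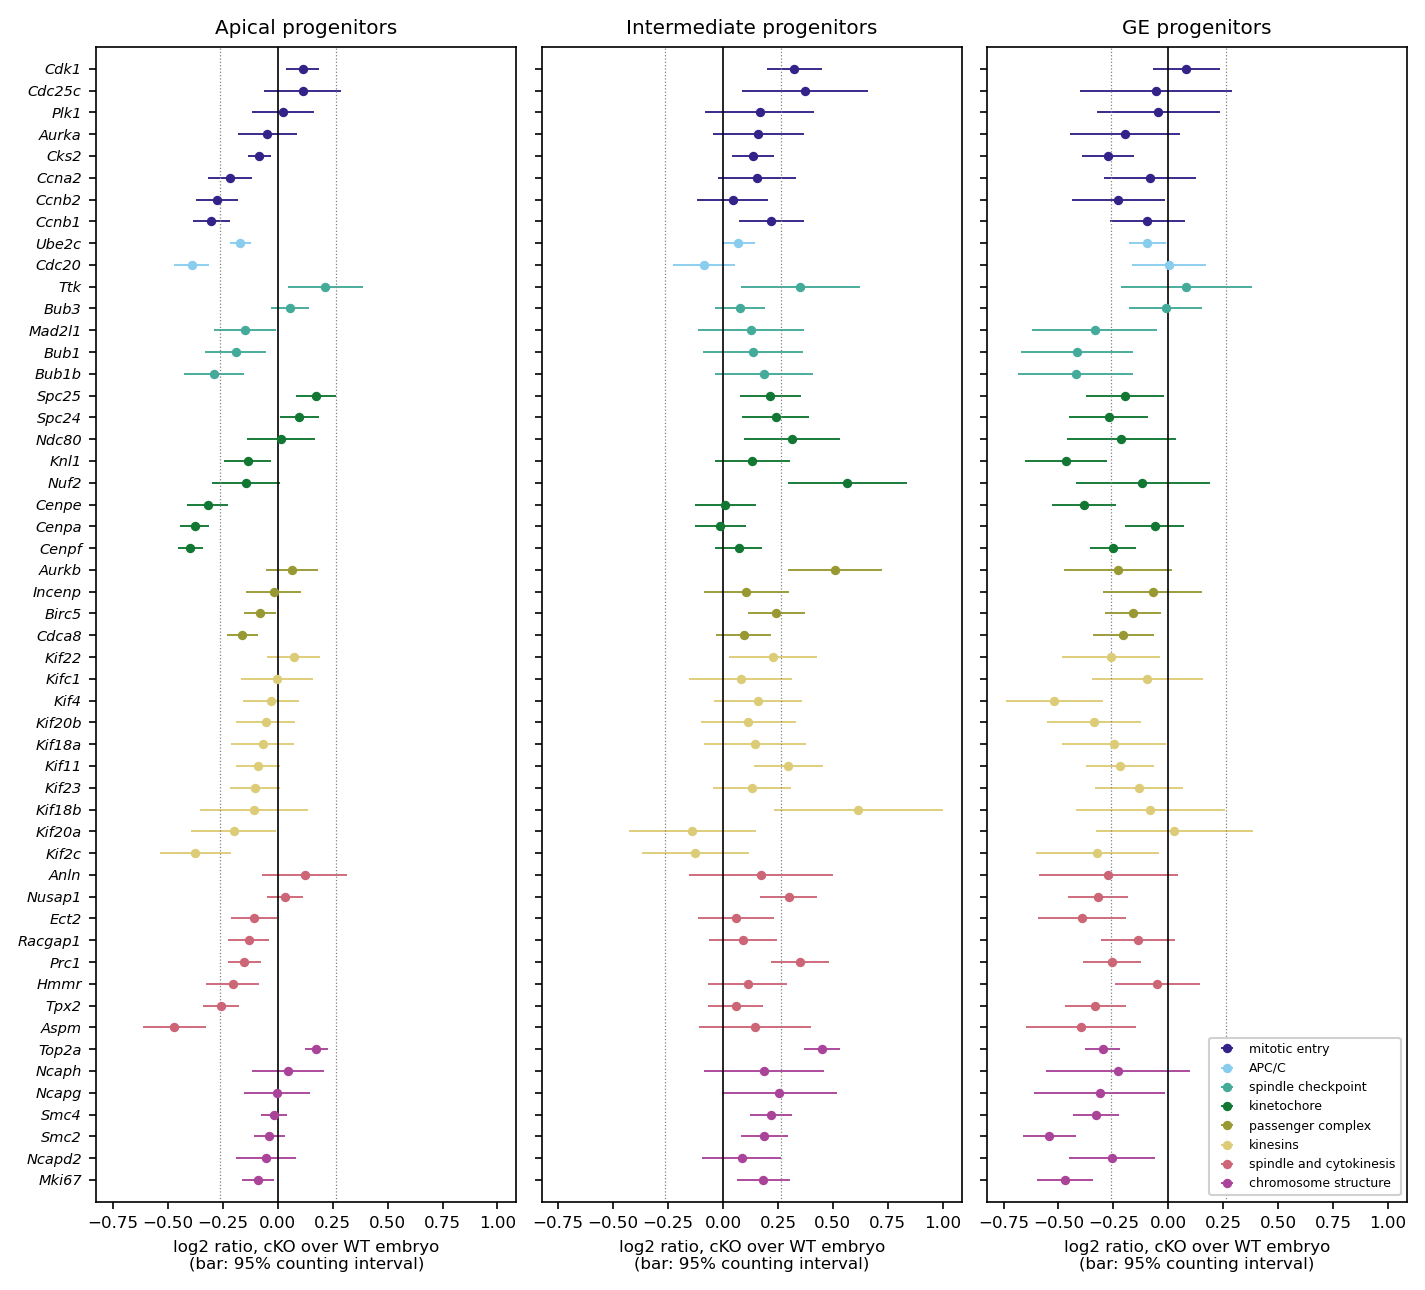
Log2 ratio of cKO over WT embryo (x axis; bars are 95% counting intervals) of the 52 mitotic genes in APs, IPs and GE progenitors, ordered by role and by their ratio in APs. Most points lie below 0 in APs (38 of 52) and GE progenitors (48 of 52) and above 0 in IPs (48 of 52), and the dotted lines mark 1.2-fold.

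The AP class held 3 clusters, and the summed level of the mitotic genes was lower in cKO within each. In the largest, with 489 WT and 592 cKO cells, it was 4237 and 3868 CPM (log2 ratio -0.13, -0.15 to -0.11). In the cluster richest in mitotic genes it was 11866 and 10005 (-0.25, -0.26 to -0.23), and in the cluster of lowest depth (median 2937 UMIs) 8015 and 6696 (-0.26, -0.31 to -0.20). Of the WT APs 25.7% fell in the richest cluster, and of the cKO APs 35.4%, and the ratio of the whole class (-0.11, -0.12 to -0.09) was nearer 0 than that of each cluster. The DNA replication genes went the other way in APs, at 1185 and 1440.2 CPM (log2 ratio 0.28, 0.25 to 0.31). In single cells thinned to 5000 UMIs, the mitotic genes summed to a median of 14 UMIs per AP in both embryos. Cells with at least 20 such UMIs made up 43.7% (40.1 to 47.4) of the 743 APs from WT, and 43.9% (40.9 to 46.9) of the 1066 from cKO, and their median was 55 UMIs in WT and 53 in cKO. In immature neurons 0.433% and 0.323% of cells reached 20. Another 173 WT and 159 cKO APs were too shallow to be thinned, and unthinned the shares were 52.9% and 56%.

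The genes that were lower in cKO APs tended to be those with less RNA in cells rich in replication transcripts relative to other cycling cells. Each gene was placed by its level in WT IPs, a separate set of cells, as the log2 ratio between 54 cells in which replication UMIs were at least 0.25 times the mitotic UMIs and 95 cycling cells in which they were fewer. The split uses the summed mitotic UMIs, which favours higher levels of these genes in the second set, so only the order of the genes is described. It ran from Plk1, Ube2c and Ccnb1 at -3.15, -2.97 and -2.78 to Kif18b and Ncapg at -0.35 and -0.31. Over the 48 genes with at least 50 UMIs in those cells, this place and the ratio in APs had a Spearman correlation of 0.55 and a Pearson correlation of 0.50. The same place had Spearman correlations of -0.20 with the ratio in GE progenitors (48 genes) and -0.21 with the change in culture (46 genes). These are descriptions across genes, which share cells and libraries and are not independent replicates. The log2 change in culture and the ratio in APs had a Spearman correlation of -0.14 over 49 genes.

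**Figure D5:**
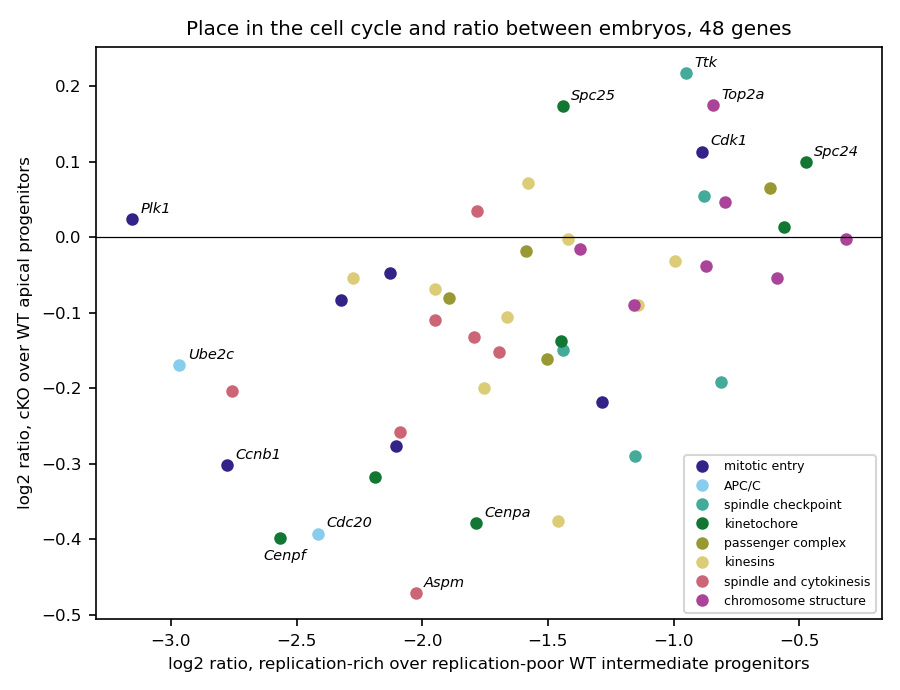
Log2 ratio of cKO over WT APs (y axis) against the log2 ratio between replication-rich and replication-poor WT IPs (x axis) for 48 mitotic genes, coloured by role. Cdc20, Cenpf and Ccnb1 lie at the lower left and Cdk1, Top2a and Spc24 at the upper right, while Plk1 lies apart at the left with a ratio of 0.02.

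In IPs the mitotic genes were mostly higher in cKO. All 52 had at least 200 UMIs, 48 ratios were above 0 and 4 below, and the median was 0.16, beside 0.00 over 8681 genes. At least 1.2-fold higher were 11 genes and at least 1.2-fold lower none, where 7.81% and 5.67% of all genes went so far. At a coarser clustering 19 genes were at least 1.2-fold higher, and without doublet calls 18. Under both settings the class took in more cells. Its largest cluster held 1108 WT and 1088 cKO cells under the first setting, and 879 and 782 under the second. In the main clustering, intervals lay above 0 for 20 genes and below 0 for none, also without a share over all genes. The highest ratios were those of Kif18b (11.04 and 16.9 CPM, log2 ratio 0.61, 0.23 to 0.999), Nuf2 (22.0 and 32.4 CPM, 0.56, 0.29 to 0.84) and Aurkb (35.8 and 50.99 CPM, 0.51, 0.30 to 0.72). Top2a stood at 246 CPM (236 to 257) for WT against 336 CPM (325 to 349) for cKO, and Cdk1 at 109 CPM (103 to 117) and 137 CPM (129.6 to 145). Kif20a (-0.14, -0.43 to 0.15), Kif2c (-0.13, -0.37 to 0.12), Cdc20 (-0.09, -0.23 to 0.05) and Cenpa (-0.01, -0.13 to 0.10) were below 0 in point estimate. Of the other genes given by culture above, Cdc25c (0.37), Ttk (0.35), Spc24 (0.24) and Birc5 (0.24) were above 0 with their intervals. Ncapg (0.25), Anln (0.17), Plk1 (0.17), Bub1 (0.14), Kif23 (0.13), Mad2l1 (0.13), Kif20b (0.11), Hmmr (0.11), Incenp (0.11), Cdca8 (0.09), Ncapd2 (0.08), Kifc1 (0.08), Ube2c (0.07), Cenpf (0.07) and Ect2 (0.06) had intervals across 0.

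Most IPs of either embryo expressed few of these genes. The class joined a cluster of 508 WT and 539 cKO cells with 539 and 561 mitotic CPM and a cluster of 126 and 151 cells with 14201 and 14152, whose leading genes were cell cycle genes. Within the second, the summed ratio was -0.01 (-0.03 to 0.02), and within the first 0.06 (-0.01 to 0.12), against 0.17 (0.15 to 0.19) for the class. Of the WT IPs 19.9% fell in the second cluster, and of the cKO IPs 21.9%. At 5000 UMIs per cell, 19.4% (16.4 to 22.8) of the 613 IPs from WT, and 20.6% (17.6 to 23.9) of the 670 from cKO, had at least 20 mitotic UMIs, so the intervals overlapped. Unthinned the shares were 22.7% and 24.6%. DNA replication genes had a log2 ratio of 0.19 (0.14 to 0.24) in IPs.

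In GE progenitors, which lie outside the domain of Emx1-Cre, the mitotic genes were also mostly lower in the cKO embryo. Of the 52 genes 48 were below 0, the median log2 ratio was -0.23 (0.00 over 7306 genes), and 20 were at least 1.2-fold lower and none higher, where 7.83% of all genes were lower and 10.6% higher by as much. Intervals lay below 0 for 30 genes and above 0 for none, again without a share over all genes. Smc2 (266 and 183 CPM, log2 ratio -0.54, -0.66 to -0.42), Kif4 (80.7 and 56.3 CPM, -0.52) and Mki67 (235 and 169.7 CPM, -0.47) were lowest. Kif4 is X-linked. Of the other genes given by culture above, Bub1 (-0.42), Ect2 (-0.39), Kif20b (-0.34), Mad2l1 (-0.34), Ncapg (-0.31), Top2a (-0.30), Spc24 (-0.27), Ncapd2 (-0.26), Cenpf (-0.25), Cdca8 (-0.20), Birc5 (-0.16) and Ube2c (-0.10) were below 0 with their intervals. Anln (-0.27), Kif23 (-0.13), Kifc1 (-0.10), Incenp (-0.07), Cdc25c (-0.06), Cenpa (-0.06), Hmmr (-0.05), Plk1 (-0.05) and Cdc20 (0.00) had intervals across 0. Ttk (0.08, -0.21 to 0.38), Cdk1 (0.08, -0.07 to 0.23) and Kif20a (0.03, -0.33 to 0.39) were highest. The 7 chromosome structure genes were all below 0 here with a median of -0.31, where APs had -0.02. Most cells of this class also expressed few of these genes. After thinning to 5000 UMIs, the mitotic genes summed to a median of 3 UMIs per cell in WT and 2 in cKO. The share of cells with at least 20 was 29.5% (24.8 to 34.5) of 363 from WT and 24.2% (20.6 to 28.1) of 529 from cKO. Unthinned it was 30.1% and 24.3%. The size depended on how the class was drawn, and so did its order with that in APs: at a finer clustering, with 180 WT and 231 cKO cells in it, the median was -0.053 against -0.065 in APs and 5 genes were at least 1.2-fold lower, and without doublet calls it was -0.31 and 33 genes were. The fibroblast class, also outside that domain, had a summed log2 ratio of -0.48 (-0.57 to -0.40). Only 4 genes reached 200 UMIs there (median log2 ratio -0.28), of which 2 were at least 1.2-fold lower, where 17.6% of all genes were lower and 18.3% higher. The pericyte markers Vtn and Rgs5 were among the leading genes of this class, and its median depth was 2377 UMIs in WT and 4112 in cKO. In the small class of endothelial cells the summed log2 ratio was 0.29 (0.22 to 0.36), and in that of microglia -0.51 (-0.65 to -0.36).

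Other genes of mitosis lay mostly above 0 in IPs, as the 52 did, but not mostly below 0 in APs. Of 34 other kinetochore and centromere genes, 24 were above 0 in APs (median 0.09). In IPs 29 of 30 with at least 200 UMIs were above 0 (median 0.21), and in GE progenitors 6 of 28 (median -0.15). Of the other spindle and cytokinesis genes 16 of 33 were above 0 in APs, 25 of 31 in IPs and 5 of 30 in GE progenitors. Nek2 had a log2 ratio of -0.59 (-0.86 to -0.33) and Spdl1 one of -0.35 (-0.59 to -0.11) in APs, while E2f7 was at 0.33 (0.13 to 0.54) and Foxm1 at 0.05 (-0.17 to 0.27). Pbk, which had the largest rise of them in culture, was at 0.03 (-0.06 to 0.12) in APs.

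The share of cells with a UMI showed the same background in neurons. After thinning, all 52 genes were detected in a larger share of APs, IPs and GE progenitors than of immature neurons in both libraries. For Aspm the share was 17.9% of WT and 14.9% of cKO APs against 0.433% and 0.242% of immature neurons. Top2a was found in 41.7% (38.1 to 45.4) of the APs from WT, and 46.2% (43.2 to 49.3) of those from cKO, against 2.42% and 2.91%. Bub3 had the largest share in neurons, and was found in 39.8% and 44.6% of APs and in 28.5% and 31.9% of immature neurons.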

How the data were processed

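The authors deposited raw counts per gene for the 6 NPC cultures (NEBNext libraries, paired reads, aligned to mm10 with HISAT2; no source used here names the counting program or its use of strand) and raw UMI counts per gene and barcode written by Cell Ranger 7.0.0 for the 2 embryos, without normalization. Gene spans that overlap others in part (Kif20a 26.8%, Kif22 25.9%, Ube2c 18.6%, Ccna2 11.8%) leave those counts uncertain.

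The counts were fitted with edgeR 4.0.16 under R 4.3.3 (filterByExpr, TMM, robust quasi-likelihood fit, Benjamini-Hochberg adjustment over all genes, threshold 0.05); standard errors came from the F statistic. The labels do not say that cultures came from separate animals, so p-values measure only the spread between these cultures. Cultures of 1 genotype differed beyond sampling noise. An exact permutation test of 3 against 3 cannot go below 0.1. On simulated counts the fit recovered the genes given a change.

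Barcodes with 200 or more genes and mitochondrial UMIs of 10% or less (8214 WT and 9560 cKO, more than the number the study describes loading) were clustered with Seurat 5.3.0 (2000 variable genes, 30 components, 20 neighbours, resolution 0.8), leaving out cell cycle, sex and mitochondrial genes. A class needed a marker score of 0.5, 3 markers raised 1.5-fold, and no more markers of another class than of its own among 10 leading genes; these limits were set with clusters in view. Clusters that did not meet these limits (2287 WT and 2746 cKO cells) stayed unnamed and were left out of the classes. Doublets, called by Scrublet in scanpy 1.11.5 (284 WT and 447 cKO), were removed only as an alternative. UMIs were summed per class, with exact Poisson, Clopper-Pearson and conditional 95% intervals. Genes needed 200 UMIs, and cells under 5000 UMIs were left out of thinning.

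Members and gene lists were chosen with earlier results of these data known. Named were, for each role, the 2 largest and the smallest change in culture at 1 CPM or more, the 3 highest and lowest ratios in a class, and 2 called genes per list of other mitotic genes. Further genes were named after their values were seen. Alternatives were DESeq2 1.42.0, limma-voom (limma 3.58.1), RLE and upper quartile scaling, other filters, replicate block, sex, each culture left out, and for cells resolutions 0.4 and 1.2, cell cycle genes kept, doublets removed, stricter filters (5% mitochondrial, 1000 genes), thinning and equal cell weights. APs without their shallowest cluster were added after seeing the data.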

Additional observations from a re-analysis of the deposited data

Results flagged for a closer look

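The mitotic genes were higher in cKO cultures, while in the embryos they were mostly higher in IPs and mostly lower in APs and GE progenitors. Their median log2 change of cKO against WT was 0.96 in the cultures, where all 49 tested genes were called higher. In the embryos the median log2 ratio was -0.087 in APs, 0.16 in IPs and -0.23 in GE progenitors. Within the IP cluster rich in these genes, with 126 WT and 151 cKO cells, the median was -0.007 and the summed ratio -0.005. At a finer clustering the GE progenitor class held 180 WT and 231 cKO cells, in place of 425 and 658, and its median was -0.053. The differences between cultures and classes, and between classes, were not tested, since each embryo is 1 sample, and cultures and embryos are separate experiments with other units.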

How the results depend on the processing

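In cultures, no alternative turned the direction of any of the 49 tested genes, none was called lower, and their median log2 change stayed between 0.85 and 1.10. Of the 49, 37 were called under all 14 alternatives and 12 lost the call under at least 1. Leaving out 1 culture gave 41 to 49 genes called higher, with 41 without the third cKO culture and 44 without the second. The labels do not say that cultures of the same number were paired. Correlations of same-numbered cultures were 0.30, -0.03 and 0.08, and those of the other pairs lay between -0.35 and 0.32. With so few cultures these values cannot exclude a pairing. With the replicate number as a block, 46 genes were called, and Top2a, Mki67 and Ube2c were not (adjusted p 0.0584, 0.0634 and 0.0653).

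In the embryos the sign of the median held in APs, IPs and GE progenitors under every alternative, while its size moved. In APs it was -0.11 at resolution 0.4, -0.065 at 1.2, -0.12 with cell cycle genes kept in clustering, -0.11 without doublet calls, -0.060 with stricter cells and -0.11 with equal cell weights, and 1 gene was at least 1.2-fold higher after thinning or with equal weights. In IPs it was 0.23 at resolution 0.4 (19 genes at least 1.2-fold higher), 0.11 with cell cycle genes kept, 0.21 without doublet calls (18 genes), 0.11 with stricter cells and 0.11 after thinning. The thinned median in IPs covers only the 34 genes that kept 200 UMIs, 22 of them above 0 and 12 below, and that in GE progenitors only 33 genes. In GE progenitors it was -0.20 at 0.4, -0.053 at 1.2 (5 genes at least 1.2-fold lower), -0.10 with cell cycle genes kept (6), -0.31 without doublet calls (33), -0.074 with stricter cells (7), -0.28 after thinning and -0.34 with equal weights (36). Without the AP cluster of lowest depth, an alternative chosen after seeing the data, the median in APs was -0.08 with 9 genes at least 1.2-fold lower. At 1.2, with cell cycle genes kept and with stricter cells the GE progenitor class held fewer cells. At 0.4 and without doublet calls the IP class held more cells, so its medians there cover a wider set. In the main clustering, a cluster of 79 WT and 116 cKO cells nearest to APs by its markers stayed unnamed. At 1.2 the AP class took in a cluster of 79 and 117 cells with similar leading genes. With stricter cells it took in such a cluster of 95 and 166. The cause of the shifts was not tested. Of 200 ratios of named genes in APs over these alternatives, 190 stayed within the counting error, 8 moved beyond it in the same direction, and Mad2l1 and Ect2 turned to 0.048 and 0.057 after thinning. With a window from 100 bases before to 50 after the start, 40.9% of the member promoters held CCAAT at least 2 times and 72.7% held TTTGAA, against 5.09% and 8.08% of all promoters. Depth limits the fibroblasts, where 48 genes had under 200 UMIs.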
